A study of Mus musculus with 4 samples.

Results

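The 9 genes described here make, break down or control polyamines: Odc1, Amd1, Amd2, Srm, Sms, Sat1, Oaz1, Oaz2 and Azin1. They were chosen by name for their place in the pathway, with the low Amd1 value of the library labelled si-hnRNPL already known, so that value and the values of the other members are given as a description and not as a test. All 9 had an entry in each of the 4 tables, which list 24850 entries with a gene symbol for the total RNA libraries and 24992 for the polyA libraries. All 9 also had a mean FPKM of at least 1 in both comparisons.

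Polyamines (putrescine, spermidine and spermine) are small cations that bind nucleic acids, and dividing cells need them for growth. Ornithine decarboxylase (Odc1) makes putrescine, S-adenosylmethionine decarboxylase (Amd1) supplies the aminopropyl group, and spermidine synthase (Srm) and spermine synthase (Sms) add it in turn. Antizymes (Oaz1, Oaz2) send ornithine decarboxylase to the proteasome and slow polyamine uptake, antizyme inhibitor (Azin1) binds antizyme in its place, and spermidine/spermine acetyltransferase (Sat1) starts the way back. In muscle precursors, high synthesis is known from proliferating cells.

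The cells were C2C12, an immortalized mouse myoblast line. Myoblasts (MB) were sampled in growth medium at -24 h relative to the change to differentiation medium (DM), and myotubes (MT) after 72 h in DM, and rRNA-depleted total RNA of each was sequenced. PolyA RNA was sequenced from cells held for 48 h in DM after transfection with siRNA against hnRNPL, an RNA-binding protein (si-hnRNPL), or with a control siRNA (si-NC). Each of these 4 conditions is 1 library, so differences could not be checked in replicates and carry no p-value. A culture in DM holds fused and unfused cells, and in such bulk RNA fewer cells of a type and less RNA per cell cannot be told apart. Total and polyA RNA were prepared and sequenced differently, hence levels were compared only within each pair.

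Levels are FPKM, a fragment number scaled to transcript length and sequencing depth, with the 95% interval that the deposited tables give. The interval reflects how well the fragments of 1 library could be counted and assigned, and says nothing of the spread between cultures. A change is the log2 ratio of FPKM + 1, which understates the change of low values, and it was called at 0.58 or more in either direction, the fold of 1.5 in the methods of the study. The widths of the intervals imply 59957460 fragments in MB, 54440533 in MT, 21341051 in si-NC and 14592480 in si-hnRNPL. Such implied fragments measure precision and need not equal the fragments counted. In si-NC, the myotube marker Acta1 at 1009 FPKM implied 2262, fewer than the 7359 of the marker Myog at 175 FPKM.

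The myotube and proliferation markers followed the MB and MT labels. All 7 myotube markers were called higher in MT, where their summed FPKM was 1463 against 14.1 in MB. All 5 proliferation markers were called lower, with 81.0 against 481. The 3 markers of myoblast identity did not fall with the label. Des (0.98) and Myod1 (0.83) were called higher in MT, and Myf5 (-0.01) was not called. They summed to 275 FPKM in MT and 149 in MB. Of 10 markers of fat, cartilage, endothelium, blood and bone, none exceeded an FPKM of 1.13 in any library. They summed to 1.51 in MB, 1.91 in MT, 1.92 in si-NC and 1.49 in si-hnRNPL, and Adipoq, Plin1 and Ibsp were at 0 in both MB and MT. The siRNA target Hnrnpl stood at 95.1 in si-NC and at 85.9 in the library labelled si-hnRNPL. This log2 change of -0.14 (95% interval -0.20 to -0.09) was not called. The study examined the knockdown by Western blot, which measures protein, whereas these values are RNA. The scale of the total RNA tables also differed: entries under 300 bp held 30.6% of the summed FPKM in MB and 3.61% in MT. The median named entry changed by -0.21 from MB to MT and by -0.01 from si-NC to si-hnRNPL.

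In MT, Odc1, Srm, the entry named Amd2 and Azin1 were called lower than in MB and 0 of the 9 members were called higher. Among the 11469 named entries with a mean FPKM of at least 1, 28.9% were called lower and 14.6% higher, and the members' median was -0.25 against -0.21 over all. Odc1, Srm and Amd2 stayed called lower under each of 3 other scalings of the libraries. Azin1 was called under none of these and stood at +0.23 when the FPKM of all entries was scaled to 1 sum. Under that scaling Amd2 stood at -0.59, just past the threshold, and Amd1 and Amd2 summed at -0.48. Amd2 has low data quality in MB and MT, so its change has no interval. The proliferation markers moved with the members called lower. Their part in the values was not tested.

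**Figure D1:**
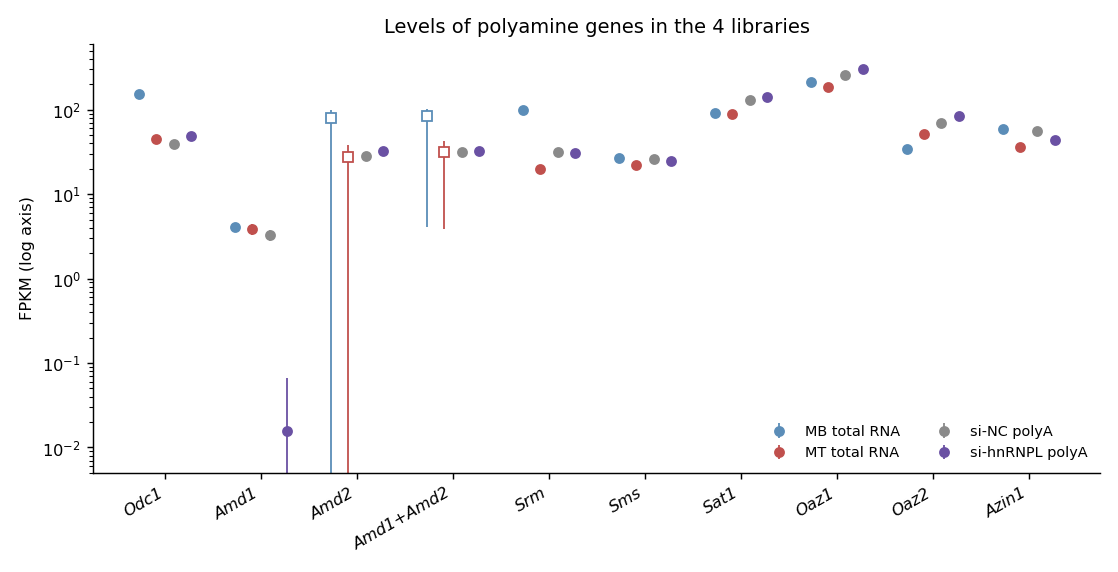
FPKM on a log axis of each gene, and of Amd1 and Amd2 summed, in the MB and MT total RNA libraries and the si-NC and si-hnRNPL polyA libraries. Points are the deposited values, bars their 95% intervals, and open squares mark estimates of low quality whose interval reaches down to 0 for Amd2. Levels are to be compared within each pair of libraries: Amd1 was at 0.0155 in si-hnRNPL and 3.28 in si-NC.

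Odc1 (chromosome 12, 17551679 to 17558308 in mm9, 13 exons), the enzyme that commits ornithine to the pathway, was listed at 151.5 FPKM in MB (149.8 to 153.3) and 45.1 in MT (44.2 to 46.0). The MT value was 29.8% of the MB value, a log2 change of -1.73 (-1.76 to -1.69). In the polyA libraries Odc1 was at 39.1 in si-NC (37.7 to 40.5) and 48.9 in si-hnRNPL (47.0 to 50.9), a change of 0.32 (0.24 to 0.39). Among the members it held rank 2 in MB, rank 4 in MT and si-hnRNPL, and rank 5 in si-NC.

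Srm (chromosome 4, 147965622 to 147968728), which turns putrescine into spermidine, had the lowest change of the members from MB to MT. It was listed at 99.7 FPKM in MB (97.6 to 101.7) and 19.6 in MT (18.8 to 20.5), a log2 change of -2.29 (-2.36 to -2.22). In si-NC it was at 31.4 (29.6 to 33.3) and in si-hnRNPL at 30.3 (28.1 to 32.5), and the interval of this change, -0.18 to 0.08, included 0.

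Sms (X chromosome, 153881886 to 153929978), which turns spermidine into spermine, was far closer in MB and MT. It was listed at 26.8 FPKM in MB (26.2 to 27.4), 22.3 in MT (21.8 to 22.9), 25.8 in si-NC (24.8 to 26.8) and 24.7 in si-hnRNPL (23.5 to 25.9). The log2 changes were -0.25 (-0.30 to -0.21) in MT over MB and -0.06 (-0.14 to 0.02) in si-hnRNPL over si-NC. The first of these turned positive, to 0.30, when scaled over named entries of 300 bp or more and to 0.67 when scaled over all entries. Hence the aminopropyl transferases differed from each other in MT over MB by -2.29 against -0.25, a contrast within 1 pair of libraries.

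The decarboxylase Amd1 was split over a pair of entries. The entry Amd1 (chromosome 10, 40007264 to 40021994) was listed at 4.06 FPKM in MB (3.67 to 4.46), 3.84 in MT (3.29 to 4.38), 3.28 in si-NC (2.76 to 3.79) and 0.0155 in si-hnRNPL (0 to 0.0659). The entry Amd2 was listed at 80.0 in MB, 27.4 in MT, 28.5 in si-NC (26.9 to 30.1) and 32.0 in si-hnRNPL (30.1 to 33.9). In the total RNA tables Amd2 carries the status of low data quality, with intervals of 0 to 99.0 in MB and 0 to 38.6 in MT.

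Both entries lie in the same place. Although named Amd2, the deposited entry spans 40007271 to 40021992 on chromosome 10 and shares 14722 bases with the Amd1 entry. GENCODE's mm9 annotation has Amd1 there, with 8 exons from 40007265 to 40021992 on the minus strand, and places Amd2 4.58 Mb away, at 35428497 to 35431697, as a gene of 1 exon. The tables hold 0 entries at that second place. Such a displacement was rare: 67 of 20581 entries that GENCODE also names (0.326%) did not overlap their GENCODE gene in the total RNA tables, and 61 of 20135 (0.303%) in the polyA tables.

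The single-exon Amd2 gene reads as a spliced copy of Amd1, which the end of exon 1 shows. The stretches are printed 5′ to 3′ from the mm9 minus strand, with transcribed exon sequence in capitals and intron in lower case.
Amd1 exon 1 end, chr10:40021525-40021584: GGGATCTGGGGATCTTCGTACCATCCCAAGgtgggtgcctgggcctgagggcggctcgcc
Amd2 same stretch, chr10:35431226-35431285: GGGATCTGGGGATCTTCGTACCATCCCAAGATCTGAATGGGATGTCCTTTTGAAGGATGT
Up to the splice site both are the same over 30 bases. Where Amd1 enters its intron, Amd2 goes straight on with the 30 bases that open Amd1 exon 2, with 0 mismatches.

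The GENCODE transcripts of Amd1 and Amd2 were close to identical, although no deposited entry covers the Amd2 gene. These transcripts of 3203 and 3201 bases aligned with 10 mismatches and were 99.4% identical, and the coding sequences of 1005 bases differed at 1 base, G796C, counted from 1 at the start codon with the base of Amd1 first. Of all windows of 36 bases in the Amd1 transcript, the shortest read that the authors kept, 89.9% also occur in that of Amd2. How fragments were divided between the deposited entries was not tested. The windows around the coding mismatch, in capitals, are printed on the minus strand, 5′ to 3′.
Amd1 coding window, chr10:40009962-40010022: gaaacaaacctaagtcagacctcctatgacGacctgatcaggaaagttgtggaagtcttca
Amd2 coding window, chr10:35430540-35430600: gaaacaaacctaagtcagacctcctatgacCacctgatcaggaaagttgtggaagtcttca

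Because both entries cover the Amd1 locus, they were also summed. The sum was 84.0 FPKM in MB, 31.2 in MT, 31.8 in si-NC (30.1 to 33.5) and 32.0 in si-hnRNPL (30.1 to 33.9). From MB to MT the sum changed by -1.40, close to the -1.51 of the Amd2 entry, while the Amd1 entry alone gave -0.07 (-0.27 to 0.13) and was positive under the 3 other scalings. From si-NC to si-hnRNPL it changed by 0.01 (-0.10 to 0.12), where the entry Amd1 alone gave -2.07 (-2.24 to -1.88) and Amd2 alone gave 0.16 (0.05 to 0.28). The size of the Amd1 value hangs on the pseudocount and scale: it was -4.87 with a pseudocount of 0.1, -7.01 with 0.01, and -3.11 under either rescaling, each outside the interval at a pseudocount of 1. The interval of the sum takes the errors of its parts as independent, which shared fragments need not be. The sum from MB to MT remained below 0 under all 3 other scalings, at -1.19, -0.85 and -0.48, the last of which would not be called.

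The Amd1 entry held 4.83% of the sum in MB, 12.3% in MT, 10.3% in si-NC and 0.0484% in si-hnRNPL. Counted in the fragments that the intervals imply, its share was 11.5% in si-NC and 0.0335% in si-hnRNPL. Those shares rest on 163 implied fragments under Amd1 in si-NC against 0.376 in si-hnRNPL, and on 1248 against 1122 under Amd2. Implied fragments are set by interval width and are not counts.

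**Figure D2:**
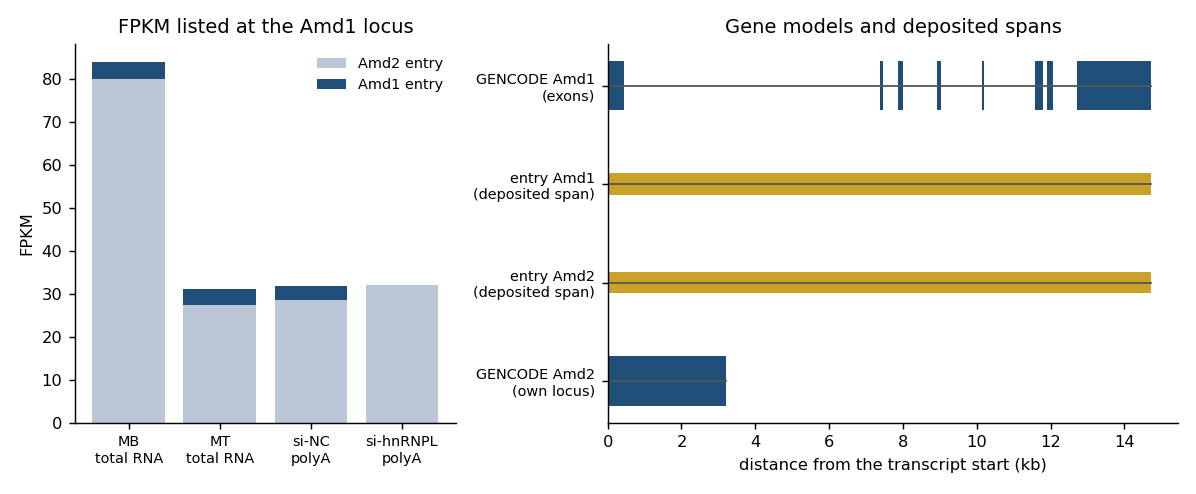
Left, stacked bars of the FPKM listed under the entries Amd2 and Amd1 in each library, with no error drawn. Right, exons of the GENCODE genes Amd1 and Amd2 and the spans of both deposited entries, in kb from the transcript start. GENCODE Amd2 is drawn from its own start, although it lies 4.58 Mb from Amd1. The sum was 31.8 in si-NC and 32.0 in si-hnRNPL while the Amd1 part went from 3.28 to 0.0155. The deposited span of Amd2 covers the Amd1 locus and not its own.

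Amd1 was chosen with its low value known, so the count of entries that drop to near 0 describes that value and does not test it. The siRNA pair had 11231 named entries of at least 1 kb, estimated in both libraries and at an FPKM of 1 or more in either. Of these, 2 had an FPKM of 1 or more in si-NC and under 0.1 in si-hnRNPL, Amd1 and BC002163. Another 2 showed the opposite, Defb41 and Tmem254c. From MB to MT the same limits were crossed downward by 21 of 11559 entries and upward by 135. Both that dropped, and 1 of the 2 showing the opposite, shared at least 90% of their span with another entry, as did 1 of the 21 and 1 of the 135 from MB to MT. BC002163, singled out after its values were seen, was at 2.90 in si-NC against 0.00452, and Ndufs5 at the same locus was at 155 against 196. Among polyA entries of at least 1 kb at any FPKM, a wider set than the 11231, 401 of 21947 share at least 90% of their span. Any part of shared spans in these drops was not tested.

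In the si-hnRNPL pair Amd1 was the 1 member called, lower, and 0 were called higher. Of 11233 named entries with a mean FPKM of at least 1, 0.864% were called lower and 1.36% higher, and the members' median was 0.11 against -0.01 over all. With Amd1 and Amd2 summed, 0 of the resulting 8 entries were called. The other members lay between -0.33 (Azin1) and 0.32 (Odc1). The myotube markers summed to 2883 FPKM in the library labelled si-hnRNPL and 1997 in si-NC, with 2 of 7 called higher, and the proliferation markers to 129 and 182, with 3 of 5 called lower. Their part in the values of the members was not tested.

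**Figure D3:**
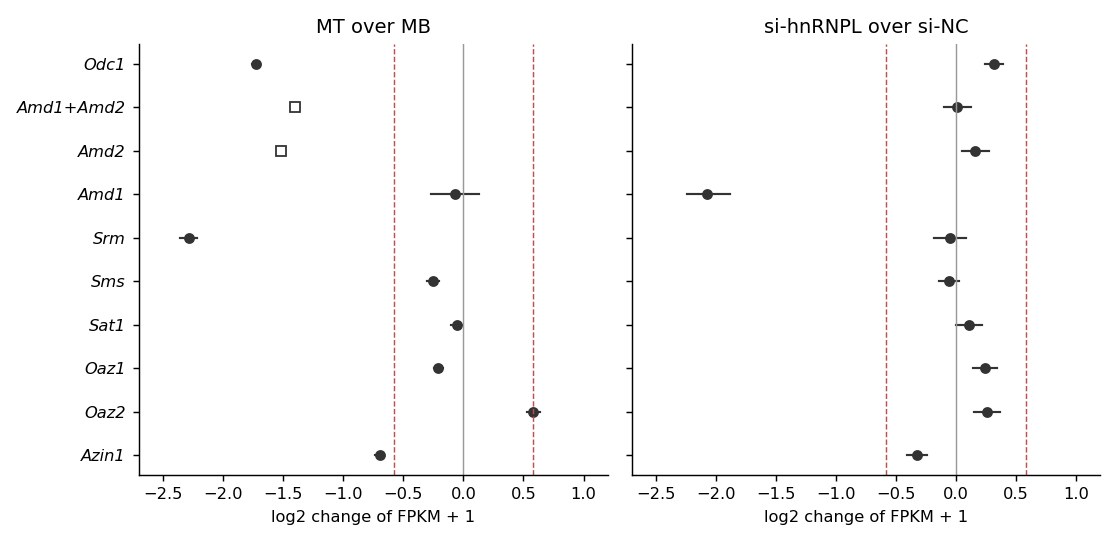
Log2 change of FPKM + 1 for each gene in MT over MB (left) and si-hnRNPL over si-NC (right), with the 95% interval as a bar. Dashed lines mark -0.58 and 0.58, and open squares are values whose interval could not be formed. Odc1, Amd2, Srm and Azin1 lie beyond the left line in MT over MB, where other scalings took Azin1 back inside and turned Sms (2 of 3 scalings), Sat1, Oaz1 and Amd1 positive, and only Amd1 does in si-hnRNPL over si-NC.

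Antizymes and their inhibitor set how long ornithine decarboxylase lasts. Oaz1 (chromosome 10, 80289401 to 80292035), the most abundant antizyme, was the highest member in all 4 libraries. It was listed at 213.9 FPKM in MB (210.3 to 217.4), 185 in MT (182 to 188), 256 in si-NC (244 to 268) and 302 in si-hnRNPL (287 to 318). The changes were -0.21 (-0.24 to -0.17) in MT over MB, which became positive under the 3 other scalings, and 0.24 (0.14 to 0.34) in si-hnRNPL over si-NC.

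Oaz1 also shared its locus. The entry Oaz1-ps, named for a processed pseudogene, was placed at 80289441 to 80291962 on chromosome 10, inside Oaz1. It was listed at 46.4 FPKM in MB and 29.5 in MT, both of low data quality, while si-NC had 116.7 (109 to 124) and si-hnRNPL 153 (143 to 163). With it, Oaz1 came to 260.2 in MB, 215 in MT, 373 in si-NC and 455 in si-hnRNPL, and the changes of the sum, -0.28 and 0.29, stayed near those of Oaz1 alone. The share of that sum under Oaz1 was 68.7% for si-NC and 66.4% for si-hnRNPL, whereas the share of Amd1 in its own locus was 10.3% and 0.0484%.

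Oaz2 (chromosome 9, 65524355 to 65538107), the second antizyme, was the member with the highest change in MT. It was listed at 33.9 FPKM in MB (32.9 to 34.8), 51.1 in MT (49.8 to 52.4), 69.4 in si-NC (65.8 to 73.0) and 83.2 in si-hnRNPL (78.6 to 87.8). The log2 change in MT over MB, 0.5798 (0.53 to 0.63), fell just short of the threshold of 0.58, and all 3 other scalings and both smaller pseudocounts put it past that. In si-hnRNPL over si-NC it was 0.26 (0.15 to 0.37).

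Azin1 (chromosome 15, 38417185 to 38449021), a relative of Odc1 without decarboxylase activity, was listed at 59.7 FPKM in MB (58.6 to 60.7) and 36.4 in MT (35.7 to 37.1), a log2 change of -0.70 (-0.73 to -0.66). In si-NC it was at 55.8 (53.6 to 58.0) and in si-hnRNPL at 44.3 (42.4 to 46.2), a change of -0.33 (-0.41 to -0.24). Its change was thus below 0 in both pairs, except in MT over MB scaled over all entries, whereas that of Odc1 was -1.73 and 0.32. The coding sequences of Odc1 and Azin1 were 62.1% identical over their alignment, gaps included.

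Sat1 (X chromosome, 151647669 to 151650992), the enzyme that acetylates spermidine and spermine for breakdown or export, was nearly level. It was listed at 92.6 FPKM in MB (90.4 to 94.7), 89.1 in MT (87.0 to 91.1), 132 in si-NC (125 to 139) and 142 in si-hnRNPL (134 to 149.9). The changes were -0.05 (-0.10 to -0.01), positive under the 3 other scalings, and 0.11 (0.00045 to 0.21).

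The order of the members shifted from MB to MT. In MB the order was Oaz1, Odc1, Srm, Sat1, Amd2, Azin1, Oaz2, Sms and Amd1, and in MT it was Oaz1, Sat1, Oaz2, Odc1, Azin1, Amd2, Sms, Srm and Amd1. Srm passed from rank 3 to rank 8 and Oaz2 from rank 7 to rank 3. The interval of Amd2 overlapped those of both its neighbours in MB (Sat1 and Azin1) and in MT (Azin1 and Sms), so its place is not settled there. At 0 to 99.0 in MB and 0 to 38.6 in MT, it also reached the intervals of Srm in both and of Oaz2 in MB. Those ranks of Srm and Oaz2 are thus not settled against Amd2. In si-NC the order was Oaz1, Sat1, Oaz2, Azin1, Odc1, Srm, Amd2, Sms and Amd1, and si-hnRNPL differed from it in the exchange of Azin1 with Odc1 and of Srm with Amd2, the latter pair having overlapping intervals in both libraries. No other neighbours overlapped. The units assembled from the total RNA reads gave 0 entries that overlapped a member locus.

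The wider pathway was read from lists for catabolism, other antizymes or inhibitors, ornithine supply, S-adenosylmethionine and methionine salvage, hypusine, transport and regulators of Odc1. They held 36 gene symbols. Of these, 35 were in the tables and 25 had a mean FPKM of at least 1 in each comparison. In MT over MB, 4 were called higher, 9 lower and 11 neither, and 1 (Slc7a1, an arginine transporter) had a failed estimate in MT. Over all named entries 14.6% were called higher and 28.9% lower, so these counts are not read as particular to the pathway. In si-hnRNPL over si-NC, 0 of 25 were called, with changes from -0.50 (Mtap) to 0.52 (Paox). Scaling over all entries turned the MT over MB counts to 10 higher and 4 lower, and either rescaling brought 1 gene past the threshold, lower, in si-hnRNPL over si-NC.

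The hypusine genes use spermidine: deoxyhypusine synthase (Dhps) and hydroxylase (Dohh) build the residue hypusine into the translation factor eIF5A. All 4 were called lower in MT over MB, as were 28.9% of all named entries. Eif5a was at 392 FPKM in MB and 145 in MT, a change of -1.43 (-1.46 to -1.40), and Eif5a2 at 10.0 and 4.07 (-1.12). Dhps was at 70.1 and 41.3 (-0.75) and Dohh at 47.0 and 23.7 (-0.96). Scaled over all entries, 0 of these 4 were called and Dhps stood at +0.18.

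Methionine salvage recycles the by-product of Srm and Sms, and Mtap, methylthioadenosine phosphorylase, opens it. Of 8 measured genes for salvage and S-adenosylmethionine supply, 4 were called lower in MT over MB and 0 higher, beside 28.9% and 14.6% over all named entries. Scaling over entries of 300 bp or more gave 3 lower and 1 higher, and scaling over all entries 3 lower and 3 higher. Mtap was at 91.5 FPKM in MB and 27.3 in MT (-1.71), Enoph1 at 27.6 and 5.98 (-2.04), Mri1 at 16.3 and 9.15 (-0.77), and Ahcy, which clears S-adenosylhomocysteine, at 56.7 and 14.0 (-1.94). Mtap, Enoph1 and Ahcy stayed called lower under all 3 other scalings, and Mri1 stood at +0.11 scaled over all entries. Mat2a, which makes S-adenosylmethionine, was at 79.0 and 68.5 (-0.20) and was not called, but it was positive under the 3 other scalings and past the threshold, at 0.74, when scaled over all entries.

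Single genes of the remaining lists were called. Azin2, a second antizyme inhibitor, was at 4.04 FPKM in MB and 10.9 in MT (1.24), and the P5-type ATPase Atp13a3, a polyamine transporter, at 30.7 and 61.0 (0.97). Sat2 was at 2.17 and 3.77 (0.59), just past the threshold. Of the catabolic oxidases, Smox was at 6.75 and 5.57 (-0.24) and Paox at 8.20 and 6.89 (-0.22), which turned to 0.28 and 0.31 scaled over entries of 300 bp or more and to 0.62 and 0.65, past the threshold, scaled over all entries. Of the factors that bind E-boxes, Myc was at 29.4 and 9.10 (-1.59), its partner Max at 27.7 and 18.4 (-0.57, but 0.35 scaled over all entries), and the antagonist Mxd1 at 1.51 and 3.98 (0.99). Myc and the higher calls of Azin2, Atp13a3, Sat2 and Mxd1 were kept under all 3 other scalings.

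**Figure D4:**
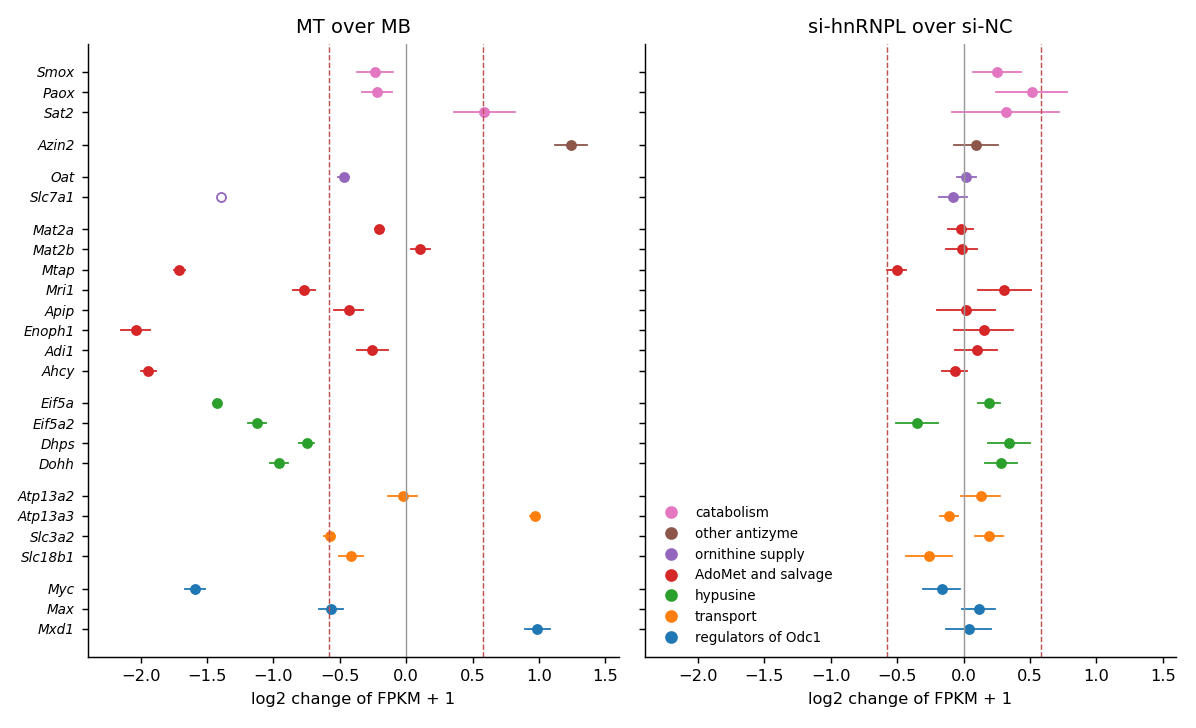
Log2 change of FPKM + 1 for the 25 measured genes of the wider polyamine pathway, coloured by list, in MT over MB (left) and si-hnRNPL over si-NC (right), with 95% intervals as bars and dashed lines at -0.58 and 0.58. The open circle is Slc7a1, whose estimate failed in MT. The 4 hypusine genes lie to the left in MT over MB, with Dhps turning positive when scaled over all entries, and all 25 genes lie between the lines in si-hnRNPL over si-NC.

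Myc with Max binds the E-box CACGTG, and Odc1 is a textbook Myc target, so this motif was searched within 1000 bases on either side of the start of each deposited locus that GENCODE lists as protein-coding, and of the members, in mm9. The motif reads the same on both strands and each site was counted once. It was found at 28.5% of 18492 starts, at least 2 sites at 5.88% and at least 5 at 0.0595%, which is 11 starts. Of the 8 member loci, Amd2 being counted with Amd1, 5 held a site: Srm 5, Odc1 2, Azin1 2, Amd1 1 and Sms 1. Oaz1, Oaz2 and Sat1 held 0 in this window.

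The sites are printed 5′ to 3′ on the strand of the gene, with the motif in capitals and its distance in bases from the start, to show how they lie at the 5 member loci that hold any.
Odc1, 325, chr12:17551992-17552021: gggatgtgcggcCACGTGtcgcgaggcccg
Odc1, 365, chr12:17552032-17552061: gccggcaggggaCACGTGgcccgggaccgg
Srm, -182, chr4:147965428-147965457: agggcctctcccCACGTGgcccggcagccg
Srm, 336, chr4:147965946-147965975: cggccctgcgtcCACGTGtcactatcggga
Srm, 394, chr4:147966004-147966033: acccagcccccaCACGTGgctcgcctgcca
Srm, 410, chr4:147966020-147966049: tggctcgcctgcCACGTGtcaccccgaatg
Srm, 452, chr4:147966062-147966091: ccccatggcggcCACGTGcacgcccaggga
Amd1, -478, chr10:40022455-40022484: gtctcgtggaaaCACGTGaaaaaatggttt
Azin1, -970, chr15:38449974-38450003: ctggtgtggtggCACGTGcctttagcagga
Azin1, 355, chr15:38448649-38448678: gggccgttatctCACGTGagtaccggactt
Sms, -437, chrX:153930398-153930427: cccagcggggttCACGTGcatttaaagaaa
Both Odc1 sites lie in an intron. The site at 355 in Azin1 falls in the non-coding part of an exon in some transcripts, as do those at 410 and 452 in Srm. Those at 336 and 394 in Srm fall in an intron in some transcripts, and the site at -182 lies upstream. The printed windows of Srm at 394 and 410 share bases. From MB to MT, 34.3% of 3349 named entries with the motif and a mean FPKM of at least 1 were called lower and 12.4% higher. Of 6640 such entries without it, 27.0% were called lower and 15.4% higher. Among members with a site, Sms and the entry Amd1 alone were not called. Whether a factor binds these letters was not measured here, and any part of the motif in the changes was not tested.

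The named entries nearest to Odc1 in log2(FPKM + 1) over the 4 libraries, out of 23406, were Gsto1, Ppa1, Nop56, Alyref and Phb, at Euclidean distances of 0.41 to 0.57. Gsto1, the nearest, was listed at 146 FPKM in MB, 53.4 in MT, 46.1 in si-NC and 57.7 in si-hnRNPL. Nearest to the sum of Amd1 and Amd2 were Tmem97, Ctps, Id1, Map2k3 and Ruvbl1, at 0.26 to 0.41. Tmem97 was listed at 90.7, 27.7, 35.8 and 32.0 in the same order, against 84.0, 31.2, 31.8 and 32.0 for the sum.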

How the data were processed

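Total RNA of MB and MT and polyA RNA of si-NC and si-hnRNPL C2C12 cells were each measured in 1 library, grouped by the sample labels. The authors removed reads under 36 bp, mapped the rest to mm9 with TopHat2 and estimated abundance with Cufflinks, and the deposited FPKM values carry a 95% interval and a status. From these, log2 ratios of FPKM + 1 were computed. Interval half-widths were combined in quadrature on the log2 scale, and left out for low data quality. Fragments were implied from (2 × FPKM / (upper bound - FPKM)) squared. Failed estimates were left out. The 14592480 (si-hnRNPL) to 59957460 (MB) fragments implied per library gauge precision and are not read counts. Intervals cover counting and assignment error only.

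Members, lists and the naming rule (all members and their copies, called genes of the lists, up to 3 other examples a list, and the 5 nearest entries) were chosen with earlier results of these data known. Mymk was matched by its older symbol, Tmem8c, in the total RNA tables. Sequences and exons came from the mm9 genome and GENCODE. Python 3.11.15, numpy 2.4.6, pandas 2.3.3 and matplotlib 3.10.9 were used, and the calculation was tested on simulated data. That simulation scored only well-covered entries and held no shared fragments, so it does not bear on the low Amd1 value. Alternatives were other pseudocounts, folds, filters and scalings, summed entries, and a call that needs an interval without 0. No set was tested, and the CLIP-seq and GRO-seq were not used here.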

Additional observations from a re-analysis of the deposited data

How the results depend on the processing

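From MB to MT, 1 member (Oaz2) was called higher in place of 0 with a pseudocount of 0.1 or 0.01, centring on the median of named entries, or rescaling over named entries of 300 bp or more, and 5 were with rescaling over all entries. Under that last scaling Azin1 stood at 0.23. The number called lower was 4, or 3 under a fold of 2, the 3 scalings and the interval rule, which cannot call Amd2 because its interval could not be formed. From si-NC to si-hnRNPL, summing Amd1 and Amd2 took the members called lower from 1 to 0, and the other alternatives left it at 1. The share of named entries called in either direction was 43.5% from MB to MT and 21.5% with no filter on FPKM. From si-NC to si-hnRNPL it was 2.23%, and 1.10% with no filter, 3.92% with a pseudocount of 0.1 and 4.14% with 0.01. These scalings shifted the MT over MB change of Odc1 by 0.21, 0.55 and 0.93 on the log2 scale, in that order. Its change in si-hnRNPL over si-NC shifted by 0.01, -0.10 and -0.11. With a pseudocount of 1, either rescaling shifts genes unequally: Amd1 in si-hnRNPL over si-NC went from -2.07 to -3.11. The share of Amd1 in implied fragments was not run for total RNA, where Amd2 has low data quality. With 1 library per condition, replicates could not be left out. No paired analysis was possible because each condition has 1 library. The low Amd1 value rests on under 1 implied fragment.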
